A study of Homo sapiens with 6 samples.

Results

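The matrix-degrading and ectodomain-shedding metalloproteinases and their inhibitors were examined as one group: the ADAM, ADAMTS and MMP proteases with the TIMP inhibitors. The group was defined by symbol alone, as the protein-coding GENCODE 29 genes named ADAM, ADAMTS or MMP with a number, or TIMP1 to TIMP4. It holds 65 of the 34913 genes measured: 20 ADAM, 19 ADAMTS, 22 MMP and 4 TIMP genes. They were compared in THP-1, a monocyte-like suspension line started from human acute monocytic leukaemia, between cells supplied by the German collection DSMZ (3 libraries) and cells supplied by its American counterpart ATCC (3 libraries). Cells of both sources were untreated and were grown side by side in RPMI with 20% fetal bovine serum, for 48 h and, after a split, another 24 h. Poly(A) RNA was sequenced from expansions that the labels describe as independent, so p-values rest on the spread between expansions within a source. The source and the particular cells it supplied cannot be told apart.

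ADAM proteins are anchored in the cell surface and cut the outer parts of neighbouring membrane proteins free, a process called shedding, and some of them have lost the protease active site and act as adhesion molecules or receptors. ADAMTS proteins are secreted, carry thrombospondin repeats and cut proteoglycans, procollagens and a few circulating proteins. MMPs, secreted or tied to the membrane, cut collagens, gelatins and other matrix proteins, and monocytes use them to cross tissue. TIMPs bind the active site of these enzymes. TIMP3 stands out because it stays bound to the matrix and inhibits ADAMs and ADAMTSs as well as MMPs. In monocytic cells ADAM17 is known for releasing tumour necrosis factor, and ADAM10 for cutting Notch receptors.

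The libraries held 23413428 to 37119721 estimated counts in DSMZ and 25632895 to 28198941 in ATCC. On the second principal component of all genes (10.3% of the variance) ATCC replicate 2 lay at 43.5, against -31.3 and -14.7 for ATCC replicates 1 and 3 and -1.54 to 2.44 for the DSMZ libraries, so values without it are given for ADAM10, ADAM9 and each of the tested genes whose call changes when it is left out. The 12 markers listed for a monocytic line were all detected in both sources, with summed levels of 2693 to 2765 CPM in DSMZ and 2614 to 3359 CPM in ATCC (CPM, counts scaled to the TMM-adjusted library size). Of these, 3 were higher in DSMZ and 5 were higher in ATCC at an edgeR adjusted p under 0.05: the granule enzyme MPO was at 90.4 CPM in DSMZ and 10.9 CPM in ATCC, and the surface receptor CD33 at 24.65 CPM in DSMZ and 61.3 CPM in ATCC. CD14, a monocyte surface marker, was low in both, at 0.334 CPM in DSMZ and 1.32 CPM in ATCC. The 10 fibroblast and stroma markers summed to 8.76 to 11.2 CPM in DSMZ and 28.0 to 30.9 CPM in ATCC. Of the 5 that were tested, COL6A1 (2.11 CPM in DSMZ and 21.4 CPM in ATCC) and the growth factor receptor PDGFRA (0.0473 CPM in DSMZ and 0.544 CPM in ATCC) were higher in ATCC, and PDGFRB (4.06 CPM in DSMZ and 2.025 CPM in ATCC) was higher in DSMZ. COL6A1 made up most of the ATCC sum. FAP, not tested, had 9 counts in DSMZ and 32 in ATCC. The fibrillar collagens COL1A1 (0.489 CPM in DSMZ and 0.534 CPM in ATCC) and COL3A1 (3 counts in all DSMZ libraries and 0 in ATCC) were near 0. Defining markers of endothelium (CDH5), T cells (CD3E) and B cells (MS4A1) had 0 counts in all 6 libraries, although the B cell list, mainly CD79B, summed to 10.3 to 13.3 CPM in DSMZ and 1.79 to 2.69 CPM in ATCC. The 5 T and NK cell markers, mainly NKG7, summed to 2.39 to 3.00 CPM in DSMZ and 6.25 to 7.72 CPM in ATCC. The endothelial list summed to 3.56 to 3.97 CPM in DSMZ and 2.03 to 2.47 CPM in ATCC, and the epithelial list to 3.72 to 5.12 CPM in DSMZ and 3.60 to 4.51 CPM in ATCC. The part of these marker levels in the differences reported here was not tested.

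DSMZ cells held less RNA of TIMP3, TIMP1, ADAM9, ADAM15, ADAM22, ADAMTS2, ADAMTS15, ADAMTS17 and MMP17 than ATCC cells, and more of TIMP2. At low levels, ADAM8, ADAM21, ADAMTS7, ADAMTS10 and MMP19 were higher in DSMZ. ADAM19, ADAM23, ADAM32, ADAMTS8, ADAMTS9, ADAMTS13, MMP11 and MMP16, also low, were higher in ATCC. The calls of ADAM8, ADAM32, ADAMTS7, ADAMTS9, ADAMTS10 and MMP11 were lost in some alternative settings. The main sheddases ADAM10 and ADAM17 and the membrane collagenase MMP14 did not pass the test. Of the 65 genes, 36 had enough counts to be tested, and 23 of them (63.9%) differed between the sources at an edgeR adjusted p under 0.05, against 49.8% of all 14577 tested genes. Of the 36 tested members, 6 were higher in DSMZ and 17 were higher in ATCC. Of all 14577 tested genes, 3516 (24.1%) were higher in DSMZ and 3749 (25.7%) in ATCC. Counts within the smaller role groups below rest on few genes and describe those genes only. A 2-fold or larger difference was seen in 20 genes (5 higher in DSMZ, 15 higher in ATCC), against 21.3% of all tested genes (9.9% and 11.4% by direction). Values of the sources did not overlap in 26 of the 36 genes, against 62.4% of all tested genes. The median log2 fold change, DSMZ minus ATCC throughout, was -0.26 for the 36 genes and 0.01 for all tested genes, and the median of its size was 1.19 against 0.47. Both medians of the 36 were the same with genes of 0 to 3 counts in a source set to their bound or counted ratio. That is no check on the medians, because such genes lay far beyond both of them either way. The members that passed the filter on low counts include genes that did so through 1 source only, so these figures describe them and do not stand for all 65. In bulk RNA, fewer cells expressing a gene and less RNA per cell cannot be told apart.

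**Figure D1:**
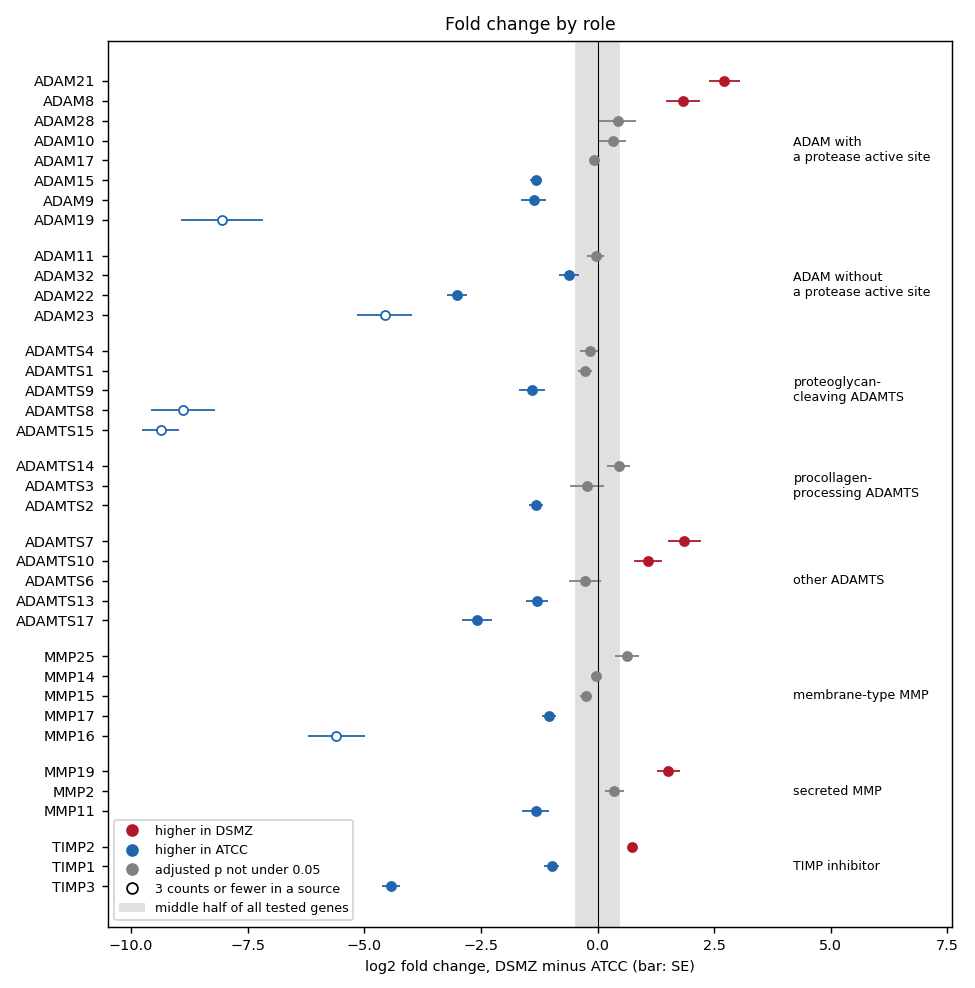
Log2 fold change (DSMZ minus ATCC, with its standard error) of the 36 tested genes, grouped by role; the grey band runs between the quartiles of all tested genes, from -0.47 to 0.46. Filled red and blue points passed an edgeR adjusted p of 0.05, grey points did not, and open points are fitted values of 5 genes with 0 to 2 counts in DSMZ, for which a bound or a counted ratio is given in the text.

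The 29 genes that were not tested had few or no counts in both sources. For 13 of them all 6 libraries had 0 counts, which allows up to 0.0344 CPM in DSMZ and 0.0363 CPM in ATCC (3 counts over the libraries of a source). These were ADAM2, ADAM7 and ADAM30, ADAMTS19 and ADAMTS20, the MMP genes MMP3, MMP10, MMP12, MMP20, MMP26, MMP27 and MMP28, and TIMP4. Another 6 (ADAM18, ADAM20, MMP7, MMP8, MMP13 and MMP21) had 1 to 10 counts over the 6 libraries. The remaining 10 (ADAM12, ADAM29, ADAM33, ADAMTS5, ADAMTS12, ADAMTS16, ADAMTS18, MMP1, MMP9 and MMP24) had at most 54. MMP9, the gelatinase that differentiated macrophages are known to secrete, had 28 counts in DSMZ and 26 in ATCC. MMP12, the macrophage elastase, was among the genes with 0 counts. MMP1, the interstitial collagenase, had 25 counts in DSMZ and 6 in ATCC. Counts of a pair of these genes came mostly from ATCC. ADAM12, a sheddase of muscle and placenta, had 2 counts in DSMZ and 41 in ATCC, an ATCC to DSMZ ratio of 21.6 (95% counting interval 5.62 to 184.5). ADAMTS12 had 1 count in DSMZ and 20 in ATCC, with a ratio of 21.1 (3.37 to 874.3). Such intervals, and the limits set by 0 counts, describe counting error alone.

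The sequence before the start of tested and untested members was then described. RefSeq promoters (GRCh38.p14, 250 bases before the start) were at hand for 38 of the 65 genes, 21 tested and 17 not tested. They were searched on both strands for the AP-1 motif TGANTCA, the TATA box TATAAA and the GC box GGGCGG. The AP-1 motif was found in 0 of 21 tested and 4 of 17 untested members (23.5%), against 3.8% of other tested and 8.19% of other untested protein-coding genes. The TATA box was found in 1 of 21 tested members (4.76%) and 6 of 17 untested ones (35.3%), against 5.38% and 18% of the other genes. The GC box was found in 18 of 21 tested members (85.7%) and 7 of 17 untested ones (41.2%), against 66.3% and 33% of the other genes. Over all 27305 RefSeq promoters the shares were 6.6% for AP-1, 11.1% for TATA and 42.3% for the GC box. The median ratio of observed to expected CpG was 0.80 in tested and 0.43 in untested members, against 0.81 and 0.32 in the other genes. A match describes these letters and is not a site of binding. Promoters of a pair of genes with large differences, TIMP3 and ADAM22, are shown beside those of a pair of MMP genes with 0 or 1 counts from the chromosome 11 cluster, MMP7 (matrilysin) and MMP10 (a stromelysin). They run 5′ to 3′ on the strand of the gene, at chr22:32801455-32801704 (+) for TIMP3, chr7:87934001-87934250 (+) for ADAM22, chr11:102530748-102530997 (-) for MMP7 and chr11:102780629-102780878 (-) for MMP10. Capitals mark the motif matches, which are GC boxes on either strand in the first pair and an AP-1 motif followed by a TATA box in the second.
TIMP3: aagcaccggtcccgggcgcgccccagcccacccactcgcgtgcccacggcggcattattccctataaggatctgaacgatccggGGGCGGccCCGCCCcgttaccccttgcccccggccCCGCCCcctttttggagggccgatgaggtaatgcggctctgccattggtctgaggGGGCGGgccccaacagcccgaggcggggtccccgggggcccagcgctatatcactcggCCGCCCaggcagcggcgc
ADAM22: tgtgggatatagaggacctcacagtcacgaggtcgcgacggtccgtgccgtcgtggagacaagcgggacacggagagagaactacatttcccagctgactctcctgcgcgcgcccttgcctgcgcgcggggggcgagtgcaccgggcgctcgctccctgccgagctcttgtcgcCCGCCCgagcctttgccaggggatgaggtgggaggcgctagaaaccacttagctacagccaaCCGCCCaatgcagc
MMP7: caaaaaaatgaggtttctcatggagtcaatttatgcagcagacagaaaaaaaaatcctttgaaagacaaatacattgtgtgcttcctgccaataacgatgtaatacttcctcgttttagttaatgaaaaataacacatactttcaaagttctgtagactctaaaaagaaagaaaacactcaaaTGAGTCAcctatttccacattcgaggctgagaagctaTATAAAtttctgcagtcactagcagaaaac
MMP10: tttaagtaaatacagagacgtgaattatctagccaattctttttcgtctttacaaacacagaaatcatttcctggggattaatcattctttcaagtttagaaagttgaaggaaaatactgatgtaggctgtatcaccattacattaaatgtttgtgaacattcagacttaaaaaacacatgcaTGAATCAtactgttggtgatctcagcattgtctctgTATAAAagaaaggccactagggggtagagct
In MMP7 the AP-1 match began 67 bases and the TATA box 30 bases before the start, and in MMP10 they began 67 and 31 bases before it. The window of TIMP3 held 5 GC boxes and that of ADAM22 held 2, with no AP-1 or TATA match in either.

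The 20 ADAM genes were taken first, beginning with those that keep a protease active site. Of 12 such genes 8 were tested, of which 2 were higher in DSMZ, 3 were higher in ATCC and 3 did not pass. ADAM10, the protease gene with the highest TPM summed over all its transcripts, coding or not (138 ± 4.65 TPM in DSMZ and 118.5 ± 49.4 TPM in ATCC, SD, n = 3 each; TPM, the level scaled for length and depth), had 185, 187.5 and 194.8 CPM in DSMZ and 198.1, 83.6 and 171.5 CPM in ATCC. The sources overlapped, with ATCC replicate 2 alone far below the others (log2 fold change 0.32, SE 0.28, edgeR adjusted p = 0.368). Without that library it was 0.04 (SE 0.07, adjusted p = 0.612). ADAM17, the tumour necrosis factor convertase, had 81.3, 77.7 and 79.3 CPM in DSMZ and 90.1, 75 and 86.9 CPM in ATCC. These also overlapped, and the log2 fold change was -0.08 (SE 0.10, adjusted p = 0.537). Without ATCC replicate 2 it was -0.15 (SE 0.06, adjusted p = 0.05), just under the threshold. IAH1, a gene on the opposite strand whose exons share 12.3% of the exon bases of ADAM17, was at 23 CPM in DSMZ and 37.6 CPM in ATCC, and the sources used here do not give the strand setting of the quantification.

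ADAM15 and ADAM9 were the abundant sheddases that differed. ADAM15, whose disintegrin domain binds integrins, had 45.4, 52.1 and 51.5 CPM in DSMZ and 113.2, 144 and 115.2 CPM in ATCC. The lowest ATCC library lay far above the highest DSMZ library, a log2 fold change of -1.32 (SE 0.13, edgeR adjusted p = 0.000155). ADAM9, a widely expressed sheddase, had 18.4, 17.0 and 17.2 CPM in DSMZ and 58.45, 26.6 and 51 CPM in ATCC. The sources did not overlap, although ATCC replicate 2 was again the lowest of its group (-1.37, SE 0.27, adjusted p = 0.00411). Without that library it was -1.63 (SE 0.08, adjusted p = 8.49e-07). ADAM15 accounted for 10.8 ± 2.53% of the summed TPM of the 61 protease genes in DSMZ and 25.4 ± 7.62% in ATCC, while ADAM10 accounted for 43.8 ± 1.28% in DSMZ and 29.4 ± 9.8% in ATCC (SD, n = 3 each). These shares include transcripts not annotated as protein-coding.

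At lower levels, a pair of active ADAMs were higher in DSMZ and 1 was not found there. ADAM8, a surface protease of leukocytes, had 1.82, 1.49 and 1.42 CPM in DSMZ and 0.530, 0.606 and 0.1785 CPM in ATCC, without overlap (1.83, SE 0.37, edgeR adjusted p = 0.00471). With transcript lengths taken into account its fold change was 0.90 and did not pass (adjusted p = 0.0907). ADAM21, a gene known from testis, had 2.39, 1.345 and 2.085 CPM in DSMZ and 0.389, 0.227 and 0.250 CPM in ATCC, a 6.59-fold difference (2.72, SE 0.33, adjusted p = 0.000454). Its neighbour and close relative ADAM20 had 9 counts in DSMZ and 0 in ATCC. ADAM19, known in mice for cutting neuregulin, had 0 counts in DSMZ and 0.706, 1.29 and 1.499 CPM (96 counts) in ATCC, at least 33.8-fold lower in DSMZ, taking 3 counts over its libraries as the limit (adjusted p = 0.000955). ADAM28, a lymphocyte ADAM, averaged 0.974 CPM in DSMZ and 0.706 CPM in ATCC and did not pass (0.43, SE 0.40, adjusted p = 0.408). The fold change was 0.97 without ATCC replicate 1, where it passed (adjusted p = 0.0472).

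The ADAMs without a protease active site came next. Of 8 such genes 4 were tested, of which 0 were higher in DSMZ, 3 were higher in ATCC and 1 did not pass. Over all tested genes 25.7% were higher in ATCC, and 4 genes are too few to stand for a group. ADAM22, a receptor for the secreted LGI proteins at synapses, had 2.04, 1.805 and 1.72 CPM in DSMZ and 16.95, 10.9 and 16.7 CPM in ATCC. Every ATCC library was several times above every DSMZ library, an 8.04-fold difference (-3.01, SE 0.21, edgeR adjusted p = 4.4e-05). ADAM23, which binds the same ligands, had 0.0434, 0 and 0.0278 CPM (2 counts) in DSMZ and 0.530, 0.530 and 0.857 CPM (53 counts) in ATCC. Scaled to library size, the ratio of ATCC to DSMZ counts was 27.95 (95% counting interval 7.37 to 236.8; adjusted p = 0.000566). ADAM32, a gene known from testis, had 3.17, 3.79 and 3.70 CPM in DSMZ and 6.604, 3.82 and 5.89 CPM in ATCC. The nearest libraries almost touched, and the call was marginal (-0.61, SE 0.22, adjusted p = 0.0492). Most ADAM32 counts (82.85% in DSMZ and 68.9% in ATCC) lay in 1 transcript matched by symbol and not by identifier, and with identifier matches alone the fold change was -0.24 (adjusted p = 0.852). ADAM11, a brain ADAM, averaged 2.61 CPM in DSMZ and 2.665 CPM in ATCC and did not pass.

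**Figure D2:**
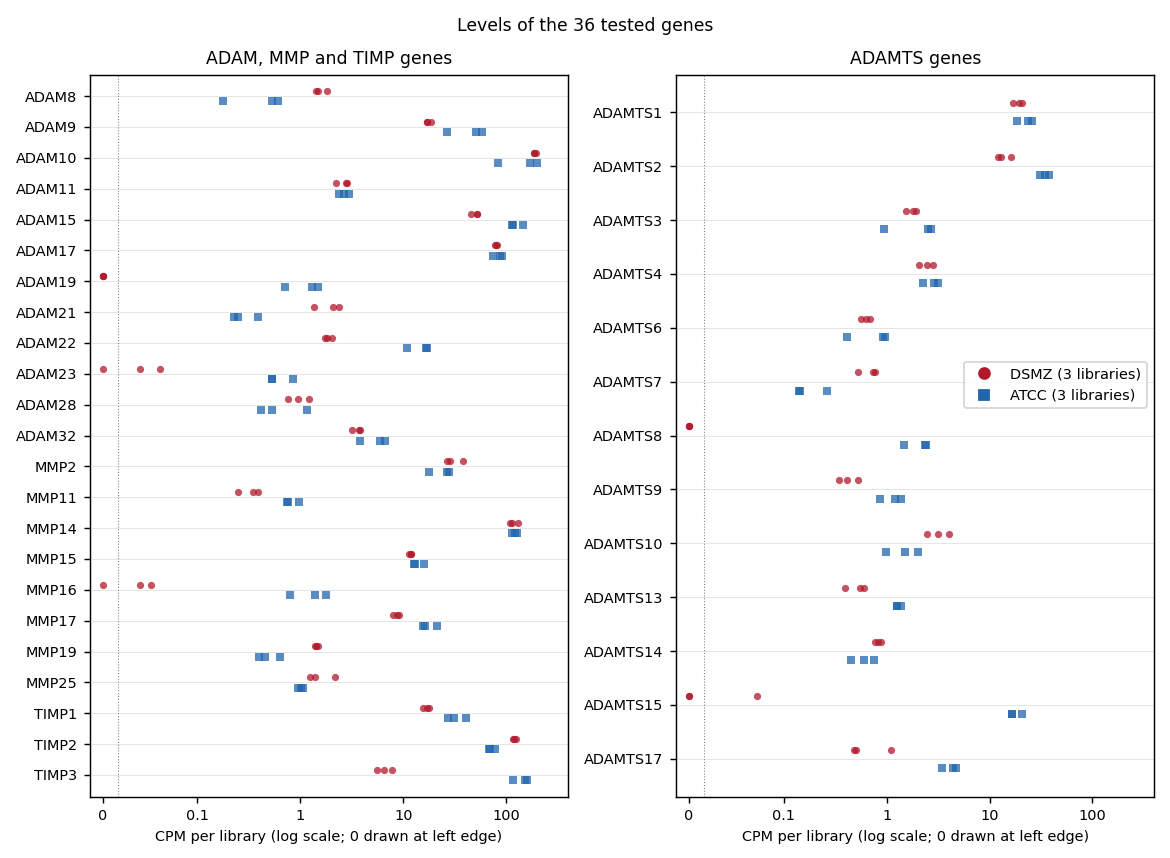
Levels of the 36 tested genes in every library, in CPM on a log scale with 0 drawn at the left edge (dotted line: start of the log part). Red circles are the 3 DSMZ libraries and blue squares the 3 ATCC libraries; for TIMP3, ADAM22, ADAMTS15 and ADAMTS17 the sources stand far apart, and for ADAM17 and MMP14 they overlap.

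The ADAMTS genes that cut proteoglycans such as aggrecan and versican included those with the largest ratios. Of 7 genes 5 were tested, of which 0 were higher in DSMZ, 3 were higher in ATCC and 2 did not pass. ADAMTS15, an aggrecanase, had 0, 0 and 0.0556 CPM (2 counts) in DSMZ and 16.5, 20.9 and 16.6 CPM (1484 counts) in ATCC. The ratio of ATCC to DSMZ was 782.5, with a 95% counting interval of 216.2 to 6468 (edgeR adjusted p = 5.83e-06). ADAMTS8, which lies 20 kb away on chromosome 11 and is read in the opposite direction, had 0 counts in DSMZ and 1.48, 2.42 and 2.36 CPM (172 counts) in ATCC, at least 60.5-fold lower in DSMZ (adjusted p = 0.00027). The genes lie at 130448974 to 130476641 (+) for ADAMTS15 and 130404925 to 130428993 (-) for ADAMTS8 in GRCh38, and the other 35 tested genes within 5 Mb of ADAMTS15 had a median log2 fold change of -0.21. The pair had at most 2 counts in DSMZ and was present in every ATCC library.

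ADAMTS1, a versican-cutting protease, had 20.9, 16.8 and 19.2 CPM in DSMZ and 25.7, 18.4 and 23.8 CPM in ATCC. The sources overlapped and the gene did not pass (-0.26, SE 0.15, edgeR adjusted p = 0.204). Without ATCC replicate 2 it passed (-0.38, adjusted p = 0.0106). ADAMTS9, another versican-cutting protease, had 0.347, 0.531 and 0.417 CPM in DSMZ and 1.20, 0.871 and 1.39 CPM in ATCC, without overlap (-1.40, SE 0.28, adjusted p = 0.00471). With transcript lengths taken into account the difference did not pass (-0.34, adjusted p = 0.681): a coding transcript of 7624 bases held 53.9% of its counts in ATCC and 0% in DSMZ, where short or intron-retaining transcripts held most. ADAMTS4, another aggrecanase, averaged 2.465 CPM in DSMZ and 2.78 CPM in ATCC and did not pass.

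Among the procollagen-processing ADAMTS genes, which trim the amino-terminal propeptide of fibrillar collagens, 1 of 3 tested genes differed. ADAMTS2 had 16.2, 12.2 and 12.8 CPM in DSMZ and 34.5, 38.0 and 31.1 CPM in ATCC. All ATCC libraries were about equally far above the DSMZ ones (-1.33, SE 0.15, edgeR adjusted p = 0.000263). ADAMTS3 averaged 1.75 CPM in DSMZ and 2.04 CPM in ATCC, with ATCC replicate 2 at 0.947 CPM. It did not pass with all libraries (-0.23, SE 0.36, adjusted p = 0.623) and passed without ATCC replicate 2 (-0.56, adjusted p = 0.0313). ADAMTS14 averaged 0.829 CPM in DSMZ and 0.601 CPM in ATCC and did not pass.

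The other ADAMTS genes went both ways, with 2 of 5 tested genes higher in DSMZ, 2 higher in ATCC and 1 not passing. ADAMTS10 and ADAMTS17 are both tied to fibrillin microfibrils and moved in opposite directions. ADAMTS10 had 4.08, 3.19 and 2.45 CPM in DSMZ and 1.52, 0.984 and 2.00 CPM in ATCC (1.09, SE 0.30, edgeR adjusted p = 0.0178), a call lost without DSMZ replicate 1 (0.89, adjusted p = 0.0548). ADAMTS17 had 0.477, 1.10 and 0.500 CPM in DSMZ and 3.43, 4.695 and 4.39 CPM in ATCC, a 6.0-fold difference (-2.59, SE 0.32, adjusted p = 0.000466). DSMZ replicate 2, the highest of its group, was still well under every ATCC library. ADAMTS13, the protease that cuts von Willebrand factor, had 0.391, 0.602 and 0.556 CPM in DSMZ and 1.38, 1.25 and 1.25 CPM in ATCC (-1.30, SE 0.23, adjusted p = 0.00267). ADAMTS7, which cuts cartilage oligomeric matrix protein, had 0.738, 0.779 and 0.528 CPM in DSMZ and 0.141, 0.265 and 0.143 CPM in ATCC (1.86, SE 0.35, adjusted p = 0.00366). With transcript lengths taken into account ADAMTS7 was at 1.24 and did not pass (adjusted p = 0.0561). ADAMTS6 averaged 0.632 CPM in DSMZ and 0.766 CPM in ATCC and did not pass.

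The membrane-type MMPs were led by MMP14, which activates MMP2 together with TIMP2 and cuts collagen at the cell surface. Of 6 such genes 5 were tested, of which 0 were higher in DSMZ, 2 were higher in ATCC and 3 did not pass. MMP14 had 131.3, 113.7 and 107.9 CPM in DSMZ and 121.6, 127.3 and 113.6 CPM in ATCC. The libraries were interleaved (-0.04, SE 0.11, edgeR adjusted p = 0.779). MMP15 had 11.9, 11.4 and 11.9 CPM in DSMZ and 13.0, 15.9 and 12.8 CPM in ATCC, which did not overlap but did not pass (-0.25, SE 0.12, adjusted p = 0.135). MMP17, held at the membrane by a lipid anchor, had 7.98, 9.13 and 8.59 CPM in DSMZ and 15.5, 21.05 and 16.4 CPM in ATCC, clearly apart (-1.04, SE 0.15, adjusted p = 0.000935). MMP16 had 0, 0.0354 and 0.0278 CPM (2 counts) in DSMZ and 1.77, 0.795 and 1.39 CPM (110 counts) in ATCC, an ATCC to DSMZ ratio of 58.0 (15.7 to 485; adjusted p = 0.000258). MMP25, a lipid-anchored MMP of neutrophils, averaged 1.60 CPM in DSMZ and 1.01 CPM in ATCC and did not pass (0.63, SE 0.26, adjusted p = 0.0774). It passed with a GC offset (0.76, adjusted p = 0.0383), and 35.2% of its exon bases overlap an antisense gene.

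Of the 16 secreted MMP genes 3 were tested, and each gave a different result. MMP2, gelatinase A, had 37.7, 28.25 and 26.6 CPM in DSMZ and 27.9, 26.35 and 17.6 CPM in ATCC, which overlapped and did not pass (0.36, SE 0.21, edgeR adjusted p = 0.184). MMP19, a secreted MMP of broad substrate range, had 1.39, 1.49 and 1.42 CPM in DSMZ and 0.636, 0.454 and 0.393 CPM in ATCC, without overlap (1.52, SE 0.24, adjusted p = 0.00148). Of its exon bases 17.4% overlap TMEM198B, a pseudogene on the other strand at 6.49 CPM in DSMZ and 3.91 CPM in ATCC. MMP11, a secreted MMP activated inside the cell by furin, had 0.347, 0.389 and 0.250 CPM in DSMZ and 0.742, 0.757 and 0.964 CPM in ATCC (-1.33, SE 0.28, adjusted p = 0.00559). Its direction turned round with transcript lengths taken into account (0.41, adjusted p = 0.561), so the direction for MMP11 holds for counts and not per length. The MMP cluster on the long arm of chromosome 11 (MMP7, MMP20, MMP27, MMP8, MMP10, MMP1, MMP3, MMP12 and MMP13) had 0 to 31 counts per gene over all 6 libraries, and none of its genes was tested. This cluster holds both MMP promoters that were printed with an AP-1 motif and a TATA box. Of its other promoters at hand, that of MMP20 had both motifs, that of MMP8 a TATA box only and that of MMP27 neither.

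All 3 TIMP genes with counts differed, and not in the same direction. TIMP3 (chromosome 22, 32801701 to 32863043, + strand) had 5.55, 6.55 and 7.76 CPM in DSMZ and 116.2, 160.9 and 153.6 CPM in ATCC. Every ATCC library lay more than 10 times above every DSMZ library, a fitted difference of 21.6-fold (-4.43, SE 0.19, edgeR adjusted p = 6.38e-06). TIMP1 (chromosome X, 47582313 to 47586789, + strand), a soluble inhibitor that is weak against most membrane-type MMPs, had 17.7, 17.0 and 15.4 CPM in DSMZ and 27.2, 40.6 and 31.2 CPM in ATCC. The sources did not overlap, and the difference was 1.98-fold (-0.98, SE 0.16, adjusted p = 0.00187). TIMP2 (chromosome 17, 78852977 to 78925387, - strand), the partner of MMP14 in activating MMP2, had 124.5, 119.9 and 117.1 CPM in DSMZ and 69.6, 77.8 and 68.8 CPM in ATCC. It was 1.67-fold higher in DSMZ, with little spread within either source (0.74, SE 0.09, adjusted p = 0.000505). TIMP4 had 0 counts in all 6 libraries. These calls of TIMP1, TIMP2 and TIMP3 held in each of the 20 alternative settings, with log2 fold changes of -1.14 to -0.80 for TIMP1, 0.66 to 0.81 for TIMP2 and -4.59 to -4.11 for TIMP3.

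Per length, TIMP2 was the most abundant inhibitor in DSMZ and TIMP1 in ATCC. Of the summed TIMP TPM, TIMP2 held 56.2 ± 0.902% in DSMZ and 20.6 ± 2.22% in ATCC, TIMP1 held 41.5 ± 1.31% in DSMZ and 49.6 ± 2.5% in ATCC, and TIMP3 held 2.28 ± 0.478% in DSMZ and 29.9 ± 2.24% in ATCC (SD, n = 3 each). The summed TIMP level was 75.4 ± 4.36 TPM in DSMZ and 126 ± 15.7 TPM in ATCC, and the ranges of 70.5 to 78.7 TPM in DSMZ and 111 to 143 TPM in ATCC did not overlap. The summed level of the 61 protease genes was 316 ± 7.48 TPM in DSMZ and 394 ± 51.0 TPM in ATCC, also without overlap (311 to 324 TPM in DSMZ and 344 to 446 TPM in ATCC). No test was made on these sums. Of the 36 tested genes, 18 stayed under 1 TPM in both sources and 11 reached 10 TPM in at least 1 source.

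**Figure D3:**
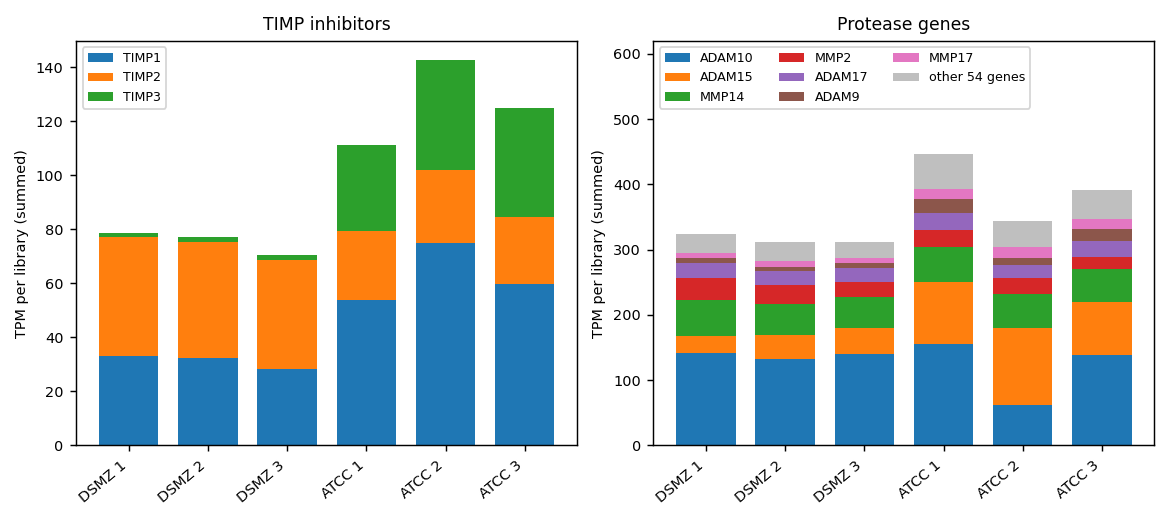
Summed TPM in each of the 6 libraries of the TIMP inhibitors (left) and of the 61 protease genes (right), with the 7 most abundant protease genes in colour and the other 54 in grey; DSMZ libraries stand left of ATCC libraries. The TIMP bars are mostly TIMP2 and TIMP1 in DSMZ, and TIMP1, TIMP3 and TIMP2 in ATCC; the protease bar of ATCC replicate 2 has the smallest ADAM10 share, 18.1%.

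The transcripts behind the gene values were compared next, as a description. TIMP3, ADAM21 and ADAMTS15 have a single listed transcript, and TIMP1-201 held 99.4% of TIMP1 TPM in DSMZ and 99.6% in ATCC. TIMP2 was split alike in both sources, with TIMP2-202 at 73.5% of its TPM in DSMZ and 71.6% in ATCC. ADAM17-201 held 98.2% of ADAM17 TPM in DSMZ and 98.0% in ATCC. ADAM10 was different: its full-length transcript ADAM10-201 (11431 bases) held 49.9% of its counts in DSMZ and 47.7% in ATCC, but 6.85% of its TPM in DSMZ and 6.27% in ATCC, because short transcripts count for more per length. The TPM of ADAM10 therefore rests largely on short transcripts, and much of it on transcripts not annotated as protein-coding. ADAM10-211, a processed transcript, held 25.7% of it in DSMZ and 25.2% in ATCC. ADAM10-202, annotated for nonsense-mediated decay, held 22.1% in DSMZ and 21.8% in ATCC. ADAM10-201 itself was at 9.46 TPM in DSMZ and 7.43 TPM in ATCC. The makeup of ADAM22 differed between libraries of the same source and was not tested. Pooled over libraries, ADAM22-204 held 29.1% of its counts in DSMZ and 59.1% in ATCC. ADAM22-205 held 50.9% in DSMZ and 10.3% in ATCC, from 160 counts in DSMZ and 1237 in ATCC. Per library, ADAM22-204 held 75.4, 0 and 1.4% of the gene's TPM in DSMZ and 20.6, 30.5 and 20.95% in ATCC. ADAM22-205 held 0.496, 18.3 and 25.8% in DSMZ and 11.2, 0 and 0.305% in ATCC. The pooled DSMZ shares therefore mix unlike libraries.

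The position of the genes was set beside their fold changes. ADAM9 and ADAM32, 1.85 kb apart on chromosome 8, lie among 42 other tested genes within 5 Mb with a median log2 fold change of -0.91, and MMP16, on the same chromosome, lies among genes with a median of -1.02. The median of chromosome 8 was -0.86. TIMP1 on chromosome X (-0.98) had a median of -0.81 among its neighbours within 5 Mb, and all of chromosome X one of -0.82. ADAM8 on chromosome 10 (1.83) had one of 0.99, and ADAMTS14 on the same chromosome, which did not pass, 0.98. The median of chromosome 10 was 1.03. Other members lay on the opposite side of 0 from their neighbours. ADAM28 on chromosome 8 (0.43), which did not pass, had a median of -0.93, and ADAM23, lower in DSMZ, one of 0.46. TIMP3 (-4.43), ADAM21 (2.72), ADAM22 (-3.01) and ADAMTS17 (-2.59) lay among genes with medians of 0.00, -0.06, 0.20 and 0.09. The part of these shifts, of a region or of a whole chromosome, in the members' differences was not tested.

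**Figure D4:**
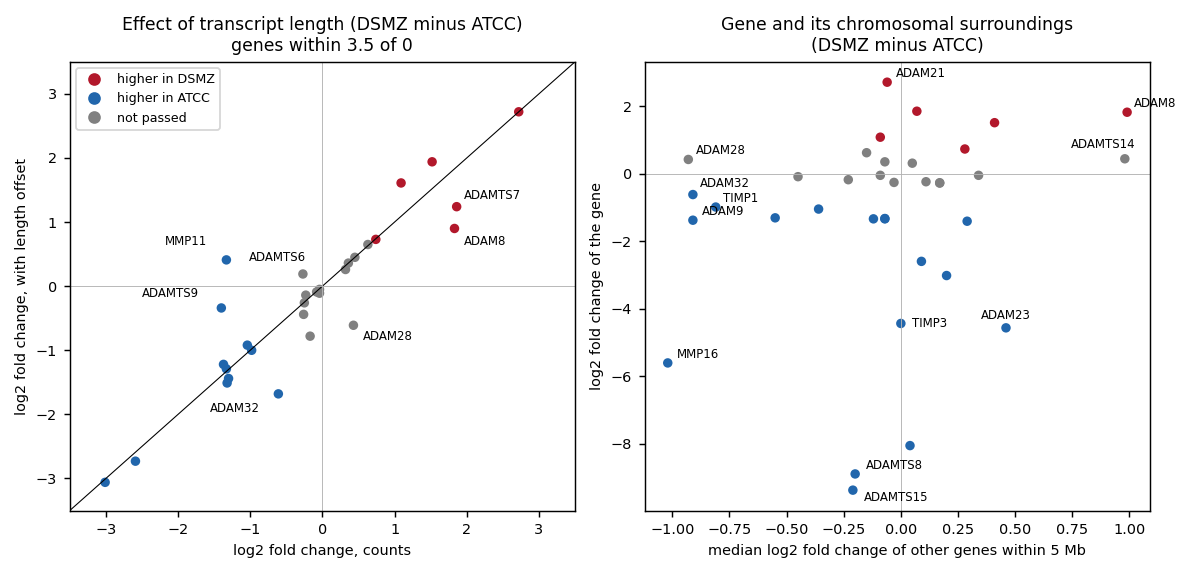
Left: log2 fold change (DSMZ minus ATCC) with a transcript length offset against that from counts, for tested genes within 3.5 of 0 on both axes; MMP11 crosses 0, and ADAM8, ADAMTS7 and ADAMTS9 move towards it. Right: fold change of each gene against the median of other tested genes within 5 Mb. ADAM9, ADAM32, TIMP1 and ADAM8 lie where the median is far from 0 on the same side. ADAM28 lies where it is far from 0 on the other side, and TIMP3 and ADAM21 where it is near 0.

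Genes that move, activate or inhibit these proteases, and proteins they shed, were taken as a list of 59 symbols, of which 58 were found and 45 tested. In this list 11 genes were higher in DSMZ and 15 were higher in ATCC, 57.8% of those tested against 49.8% of all tested genes, with a median log2 fold change of 0.05 against 0.01. Among 9 genes for the trafficking of ADAM10 and ADAM17, 1 was higher in DSMZ and 4 were higher in ATCC. The tetraspanins that escort ADAM10 went both ways. TSPAN14 was at 88.3 ± 3.19 CPM in DSMZ and 43.95 ± 5.59 CPM in ATCC (1.01, SE 0.12), TSPAN5 at 7.61 ± 0.563 CPM in DSMZ and 18.4 ± 1.41 CPM in ATCC (-1.27, SE 0.12), and TSPAN33 at 3.51 ± 1.07 CPM in DSMZ and 8.67 ± 2.25 CPM in ATCC (-1.30, SE 0.27; SD, n = 3 each). The edgeR adjusted p was 0.000338 for TSPAN14, 0.000143 for TSPAN5 and 0.00551 for TSPAN33.

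Of 7 tested proteases and receptors that activate the group, 2 were higher in DSMZ and 4 were higher in ATCC. PCSK5, a proprotein convertase, was at 26.5 ± 6.29 CPM in DSMZ and 9.87 ± 2.70 CPM in ATCC (1.42, SE 0.25), and PLAUR, the urokinase receptor, at 46.5 ± 3.74 CPM in DSMZ and 21.1 ± 3.86 CPM in ATCC (1.14, SE 0.15). Furin, the convertase that removes the propeptide of many ADAMs and of MMP14, is named although chosen after its values were seen. It was at 28.6 ± 0.474 CPM in DSMZ and 57.3 ± 7.87 CPM in ATCC, 2.003-fold lower in DSMZ (SE 0.12 on the log2 scale, edgeR adjusted p = 0.000438; SD, n = 3 each). A list of 5 genes held other inhibitors and an inducer, and of these 0 were higher in DSMZ and 2 were higher in ATCC. SERPINB2, an inhibitor of urokinase, was at 26.7 ± 4.93 CPM in DSMZ and 152 ± 5.12 CPM in ATCC (-2.51, SE 0.15, adjusted p = 2.34e-05). RECK, named like furin after its values were seen, was at 15.55 ± 1.31 CPM in DSMZ and 32.6 ± 6.52 CPM in ATCC (-1.07, SE 0.17, adjusted p = 0.00142). BSG, a membrane glycoprotein known to induce MMPs, was at 549 ± 16.6 CPM in DSMZ and 530 ± 78.5 CPM in ATCC and did not pass (SD, n = 3 each).

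Among 18 tested substrates that ADAMs are known to shed, 6 were higher in DSMZ and 4 were higher in ATCC. N-cadherin (CDH2), a substrate of ADAM10, had 4 counts in DSMZ and 1954 in ATCC (-8.87, SE 0.24, edgeR adjusted p = 2.12e-06). The ADAM10 substrates NOTCH2 (153 ± 12.7 CPM in DSMZ and 332 ± 34.7 CPM in ATCC; -1.12, SE 0.11) and NOTCH1 (42.4 ± 2.13 CPM in DSMZ and 91.2 ± 11.5 CPM in ATCC; -1.11, SE 0.12) were also higher in ATCC. The receptors for tumour necrosis factor were higher in DSMZ: TNFRSF1A was at 121.6 ± 5.46 CPM in DSMZ and 70.7 ± 8.996 CPM in ATCC (0.78, SE 0.11), and TNFRSF1B at 65.3 ± 4.59 CPM in DSMZ and 32.6 ± 6.64 CPM in ATCC (1.00, SE 0.16). FCER2, the low-affinity IgE receptor (2.44, SE 0.56), the phagocytic receptor MERTK (1.16, SE 0.19) and the growth factor receptor CSF1R (119.6 ± 17.5 CPM in DSMZ and 79.0 ± 17.4 CPM in ATCC; 0.60, SE 0.18) were higher in DSMZ as well. The amyloid precursor APP, the interleukin receptor IL6R and the complement regulator CD46, each over 100 CPM, did not pass (adjusted p between 0.229 and 0.686). Of 6 tested proteins related to the group but outside its symbols, 2 were higher in DSMZ and 1 was higher in ATCC.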

How the data were processed

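Per the labels' protocols, RNA was extracted with TRIzol and RNeasy columns and made into libraries with a stranded KAPA poly(A) kit. The submitters' processing notes name bcl2fastq 2.20, Trimmomatic 0.35, kallisto 0.43.0 and the build GRCh38; the transcript annotation and the strand setting are not given in the sources used here. Per the file headers, the authors deposited for each transcript its effective length, its estimated count, which is not normalized, and its TPM, scaled for length and depth.

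Of 179973 transcripts, 163714 (91%) were matched to GENCODE 29 genes by identifier, 14222 by symbol and 2037 to none. Estimated counts were summed over 34913 genes, rounded and tested with edgeR 4.0.16 in R 4.3.3 (filterByExpr, TMM, quasi-likelihood F test, source as the only term), giving 14577 tested genes with a biological coefficient of variation of 15.9%. P-values were adjusted by Benjamini-Hochberg over all tested genes, with a threshold of 0.05. The standard error of a log2 fold change is its size over the square root of its F. Deposited TPM values were summed per gene for comparisons between genes. The test was also run on simulated counts, built on the means, library sizes and dispersion of these data. Libraries of 1 source differed by more than sampling noise (chi-square over its degrees of freedom at least 4.61), so none was treated as a repeat of another. Figures were drawn with matplotlib 3.10.9.

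Members, gene lists and tests were chosen with earlier results of these data known. Values in every library are given for tested members that passed or averaged at least 5 CPM in a source, and for the TIMPs. Of the related list, up to 6 called genes with the largest fold change in each direction and those of at least 100 CPM are named. Furin and RECK are named outside that rule. Alternatives were 3 other scalings, no filter and a mean of at least 1 CPM, DESeq2 1.42.0, limma 3.58.1 on log2(TPM + 0.5) and on voom weights, a length offset, protein-coding transcripts, identifier matches only, a GC offset, a replicate block without and with it, and leaving out each library. GC content was available for 99.9% of genes.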

Additional observations from a re-analysis of the deposited data

How the results depend on the processing

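Of 20 alternative settings, 19 gave 19 to 27 metalloprotease and TIMP genes passing, within 1.5 times of the 23 first found. The exception was a filter at a mean of at least 1 CPM, which tested 24 of these genes and called 14 (3 higher in DSMZ and 11 higher in ATCC), all among the 23; it left out 12 low genes, 9 of them called. Leaving out each library gave 22 to 27 of these genes, 5509 to 9515 of all genes and 23 to 31 of the related list. Without ATCC replicate 2 the 27 included ADAM17, ADAMTS1 and ADAMTS3, all higher in ATCC. No filter on low counts added ADAM12 (-4.19), ADAMTS12 (-3.97) and ADAM20 (4.60). Upper quartile scaling moved the median of all genes to -0.07, and none of the 3 scalings changed the split of 6 and 17. With the GC offset 24 of these genes, MMP25 added, and 9165 of all genes passed.

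Directions turned for genes whose first value was near 0 or whose transcripts differed in length. ADAM11 was at 0.07 with the GC offset, 0.06 with the replicate block and GC offset, 0.08 without DSMZ replicate 3 and 0.05 without ATCC replicate 2, and MMP14 at 0.02, 0.02, 0.03 and 0.01 in the same settings; over the left-out libraries ADAM11 ran from -0.15 to 0.08 and MMP14 from -0.14 to 0.03. With limma on log2(TPM + 0.5) and with the length offset, ADAM28 was at -0.30 and -0.61, ADAMTS6 at 0.06 and 0.19, and MMP11 at 0.26 and 0.41; ADAMTS9 was at 0.08 with limma. ADAM8 and ADAMTS7 lost their calls in the same pair of settings, ADAM32 in 9 settings and ADAMTS10 without DSMZ replicate 1. MMP11 had too few counts for a test with identifier matches only, as had ADAMTS7 and MMP19 with protein-coding transcripts. The cause was not tested.

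Replicate numbers are shared between the sources. Deviations of same-numbered libraries correlated at 0.0126, 0.0803 and 0.162, and those of differently numbered libraries at -0.103 to 0.0258. DSMZ replicates 2 and 3 correlated best with the ATCC library of the same number, and DSMZ replicate 1 with ATCC replicate 2. The labels state no pairing, so the numbers were not taken as pairs in the main test and were tried as a block. With the replicate block 22 of the genes passed (without ADAM32) and 7015 of all genes; with the block and GC offset 24 and 9120 passed, MMP2 (0.39, edgeR adjusted p = 0.00984) and MMP25 (0.75, adjusted p = 0.0322) among the 24. At this depth, members with under 55 counts over the 6 libraries were not tested.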
